A study of Homo sapiens with 24 samples.

Results

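The neural plate border is the strip of ectoderm between the future central nervous system and the epidermis. The 9 genes described here are markers and regulators of that border and of the neural crest, the migratory cell population that leaves it to form pigment cells, peripheral neurons and glia, and much of the facial skeleton. *TFAP2A* and *TFAP2B* encode AP-2 transcription factors of the border, the surface ectoderm and the crest. *PAX3* and *PAX7* encode paired-box factors, and *MSX1* and *MSX2* encode homeobox factors that act downstream of BMP signaling at the border. *FOXD3* encodes a forkhead factor of premigratory crest that is also known from pluripotent stem cells, and *SOX10* encodes an SRY-box factor of migrating crest and of its glial and melanocyte derivatives. *EDNRB* encodes the endothelin receptor type B, a G-protein-coupled receptor of crest-derived melanocyte and enteric precursors that is also known from radial glia and astrocytes. The members were given as a list of symbols. For each symbol, the transcript cluster annotated with that symbol alone and with the highest mean over all arrays was taken. All 9 symbols were found, each with exactly 1 such cluster, among 33616 genes with a single-symbol cluster.

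The cells were human induced pluripotent stem cells (hiPSCs) of the R-2A line (HiPS-RIKEN-2A). One cell line carried a control shRNA (control cells) and the other an shRNA against *ROR2*, a receptor tyrosine kinase for *WNT5A* (*ROR2* KD cells). Both were made by lentiviral transduction and puromycin selection. RNA was taken from undifferentiated cells (day 0) and on days 7, 14 and 21 of monolayer neural induction under dual SMAD inhibition, a culture that favors central neural fates, on 24 Clariom D arrays in all, 3 biological replicates for each cell line on each day. Whether a group's replicates stem from separate transductions is not in the labels. The p-values therefore measure the spread between these samples, and the knockdown cannot be told apart from anything else in which the control and *ROR2* KD lines differ.

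Values are log2 signals. Each array was given a strict background level, which 95% of its 23 background probe sets did not exceed, and this level lay between 7.30 and 9.97. A looser limit, the 95th percentile of the 612 negative control probe sets, lay between 6.90 and 8.24. Array medians were 4.26 to 4.51, and 19.7% to 30.3% of single-symbol clusters lay above the background level. A signal under that level is not shown to be noise, and a fold change there need not measure the ratio of the transcripts. A difference was called at a Benjamini-Hochberg adjusted p under 0.05 over all transcript clusters (limma) and a fold change above 2, and "rose", "fell", "higher" and "lower" as verdicts are used only for called differences. The targeted gene was checked first. On day 0, *ROR2* read 8.02, 7.76 and 7.64 on the control arrays and 4.54, 5.95 and 5.39 on the *ROR2* KD arrays. On day 7 it read 9.19, 9.28 and 9.40 against 6.78, 6.90 and 6.34. On day 14 it read 6.65, 6.32 and 6.68 against 4.11, 4.02 and 3.82. The groups did not overlap on these days, and *ROR2* was called lower on each of them. Only the 3 control arrays of day 7 lay above the background level for *ROR2*. The sizes of these differences therefore rest wholly (days 0 and 14) or in part (day 7) on signals under it. On day 21, when control cells themselves read 4.25, 4.64 and 4.48 and *ROR2* KD cells 3.52, 3.43 and 3.75, the difference was not called (adjusted p = 0.0823, limma). *NANOG*, a pluripotency factor, read 15.61 to 16.21 on the 6 arrays of day 0 and was under the background level on every array of day 7. *PAX6*, a factor of the early neural plate, read 4.49 to 5.48 on the 6 arrays of day 0 and 14.31 to 15.43 on the 6 arrays of day 7.

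Promoter sequences are shown for the 3 members whose window held the letters CCAAT 2 times and for *EDNRB*, the one member with a called difference. RefSeq (GRCh38.p14) gave a window before an annotated transcription start for 8 of the 9 members, with 10 windows in all. The pentamer CCAAT, read on either strand, was present in 5 of the 10 windows of 250 bases, against 32.0% of the 35116 windows of all genes. The windows of *PAX3*, *MSX1* and *MSX2* each held it 2 times, at nearly the same distances in *PAX3* and *MSX2*, and neither window of *EDNRB* held it. The share of all windows that held it 2 times was not counted. The hexamer TATAAA was present in 2 windows, of *TFAP2A* and *TFAP2B*, against 10.7% of all windows. The other strings searched were ACAAT, present in 3 windows against 24.6% of all windows, and CAGCTG, present in 0 against 14%. The count of CpG dinucleotides ran from 5 (*TFAP2B*) to 24 (*FOXD3* and *MSX1*), with a median of 16.5 in the member windows and 11 in all windows. A match is a description of these letters, not a binding site. The window of *PAX3* (chr2:222298999-222299248, minus strand), of *MSX1* (chr4:4859415-4859664, plus strand), of *MSX2* (chr5:174724332-174724581, plus strand) and the first of 2 windows of *EDNRB* (chr13:77919683-77919932, minus strand) are printed here from 5′ to 3′ and end 1 base before the start, with CCAAT and its reverse complement in capitals.
PAX3: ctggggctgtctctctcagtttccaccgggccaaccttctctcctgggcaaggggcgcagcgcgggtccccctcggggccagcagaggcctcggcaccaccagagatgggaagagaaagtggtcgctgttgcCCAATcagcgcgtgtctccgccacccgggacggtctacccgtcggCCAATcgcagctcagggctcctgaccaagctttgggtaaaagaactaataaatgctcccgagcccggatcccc
MSX1: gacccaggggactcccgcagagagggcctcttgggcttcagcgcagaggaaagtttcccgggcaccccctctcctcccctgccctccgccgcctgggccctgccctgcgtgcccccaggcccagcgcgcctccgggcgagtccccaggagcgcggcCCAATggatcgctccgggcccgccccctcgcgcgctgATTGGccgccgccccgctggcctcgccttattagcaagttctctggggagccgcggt
MSX2: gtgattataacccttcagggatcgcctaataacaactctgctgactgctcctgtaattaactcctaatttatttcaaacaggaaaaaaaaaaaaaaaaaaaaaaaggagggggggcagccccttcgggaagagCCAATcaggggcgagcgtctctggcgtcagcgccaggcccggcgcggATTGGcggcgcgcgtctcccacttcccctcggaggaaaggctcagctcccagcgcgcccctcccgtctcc
EDNRB: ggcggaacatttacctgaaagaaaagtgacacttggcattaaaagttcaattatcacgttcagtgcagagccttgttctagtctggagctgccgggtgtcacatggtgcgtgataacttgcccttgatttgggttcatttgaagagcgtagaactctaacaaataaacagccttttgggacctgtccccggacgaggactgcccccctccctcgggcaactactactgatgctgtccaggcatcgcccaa
In *PAX3* the 2 matches begin 118 and 73 bases before the start. In *MSX1* they begin 94 and 57 bases before it, and in *MSX2* 117 and 70 bases before it. The single match of *PAX7* begins 128 bases and that of *TFAP2B* 45 bases before the start.

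Of the 9 members, only *EDNRB* was measured above the background level. The other 8 stayed under it on all 24 arrays, in hiPSCs and on every day of induction in both cell lines, and they also stayed under the looser limit set by the negative controls. Their log2 signals over all arrays and members lay between 2.29 (*MSX1*) and 6.97 (*SOX10*). Probes differ in brightness, so that the order of the members among themselves was not read. *EDNRB* lay above the background level on 9 of 24 arrays, namely the 3 control arrays of day 14, the 3 control arrays of day 21 and the 3 *ROR2* KD arrays of day 14.

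**Figure D1:**
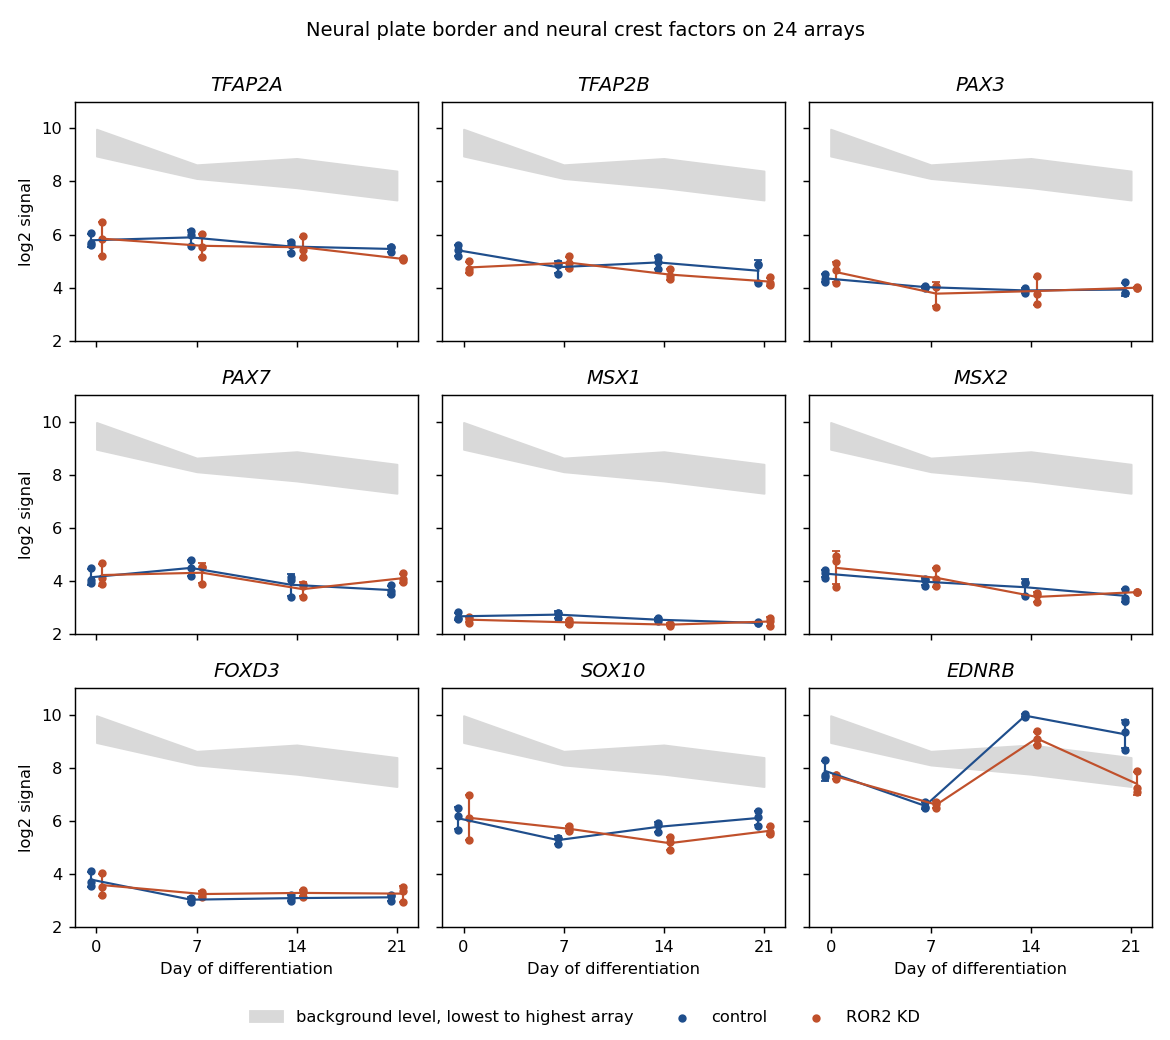
Log2 signal (y axis) of the 9 members on each of the 24 arrays against day of differentiation (x axis), with control arrays in blue and ROR2 KD arrays in orange, slightly displaced. Points are arrays, lines join group means, bars are the SD of 3 arrays, and the grey band runs from the lowest to the highest background level of that day's arrays. Only EDNRB reaches the band or passes it, on days 14 and 21.

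The AP-2 genes were not called between the cell lines on any day. *TFAP2A* ran from 5.06 over a median of 5.56 to 6.48 on the 24 arrays. On day 21 it read 5.32, 5.51 and 5.53 in control cells and 5.06, 5.09 and 5.10 in *ROR2* KD cells, which do not overlap, but the difference of -0.38 (95% interval -0.95 to 0.20) did not pass the test. *TFAP2B* ran from 4.10 over 4.79 to 5.60. On day 0 it read 5.20, 5.43 and 5.60 in control and 4.99, 4.58 and 4.71 in *ROR2* KD hiPSCs. This difference of -0.65 (SE 0.22, adjusted p = 0.30, limma) was the largest of the 8 dim members on any day, and it too was not called. *TFAP2C*, another AP-2 gene, read 8.59 to 8.89 in control and 9.16 to 9.84 in *ROR2* KD hiPSCs and at most 4.75 on any array from day 7 on.

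The paired-box and homeobox genes of the border stayed low as well. *PAX3* ran from 3.26 over a median of 4.01 to 4.91, and *PAX7* from 3.38 over 4.03 to 4.78. The arrays of the cell lines overlapped for *PAX3* on all 4 days. *PAX7* on day 21 read 3.61, 3.84 and 3.51 in control and 3.94, 4.08 and 4.29 in *ROR2* KD cells, the one case on that day in which a member of the 9 read above control on every array, with a difference of 0.45 (95% interval -0.09 to 0.99) that was not called. *MSX1* ran from 2.29 over 2.50 to 2.82, the narrowest range of the 9. Its *ROR2* KD arrays lay below all control arrays on day 7 (2.43, 2.52 and 2.36 against 2.59, 2.80 and 2.79) and on day 14 (2.37, 2.29 and 2.38 against 2.58, 2.47 and 2.55), by amounts far under the limit of a call. *MSX2* ran from 3.19 over 3.80 to 4.94 and overlapped on every day.

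The crest specifiers among the members were not called between the cell lines either. *FOXD3* ran from 2.93 over a median of 3.21 to 4.11. *SOX10* ran from 4.90 over 5.68 to 6.97. On day 14 *SOX10* read 5.57, 5.85 and 5.92 in control and 5.40, 5.20 and 4.90 in *ROR2* KD cells, and on day 21 it read 6.15, 6.37 and 5.82 against 5.50, 5.81 and 5.59. On day 7 the order was the opposite, with 5.36, 5.12 and 5.37 in control and 5.80, 5.61 and 5.71 in *ROR2* KD cells. The differences of 0.42 on day 7, -0.61 on day 14 and -0.48 on day 21 were not called after adjustment, and of their 3 intervals only that of day 14, from -1.23 to -0.0026, left out 0.

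The question the arrays were made for is which genes differ between *ROR2* KD and control cells in the course of neural induction. Among the 9 members the answer was 0 genes on day 0, 0 on day 7, 0 on day 14 and 1 on day 21, *EDNRB*, which was lower in *ROR2* KD cells. The share of all single-symbol clusters called was 0.0857% for day 0, 0.263% for day 7, 1.64% for day 14 and 4.51% for day 21, and 1 call among 9 genes is to be read beside these shares. At an unadjusted p under 0.05, 1 member passed on day 0, 0 on day 7, 2 on day 14 and 1 on day 21. For the 8 dim members, log2 differences in hiPSCs lay between -0.65 and 0.23, and their 95% intervals reached no further than -1.11 and 0.76. On day 7 they lay between -0.32 and 0.42, with intervals no further than -0.90 and 1.04. On day 14 they lay between -0.61 and 0.20 (-1.23 and 0.64), and on day 21 between -0.48 and 0.45 (-1.09 and 0.99). These intervals bound the difference of the signal, and at signals near background they do not bound the difference of the transcript. The median difference of the 9 members was 0.01, 0.04, -0.19 and 0.05 on days 0, 7, 14 and 21, beside -0.10, 0.01, -0.03 and -0.02 for all single-symbol clusters. For 1, 3, 3 and 4 of the 9 members on days 0, 7, 14 and 21 the arrays of the cell lines did not overlap, as was the case for 15.9%, 16.3%, 22.1% and 23.1% of all single-symbol clusters.

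**Figure D2:**
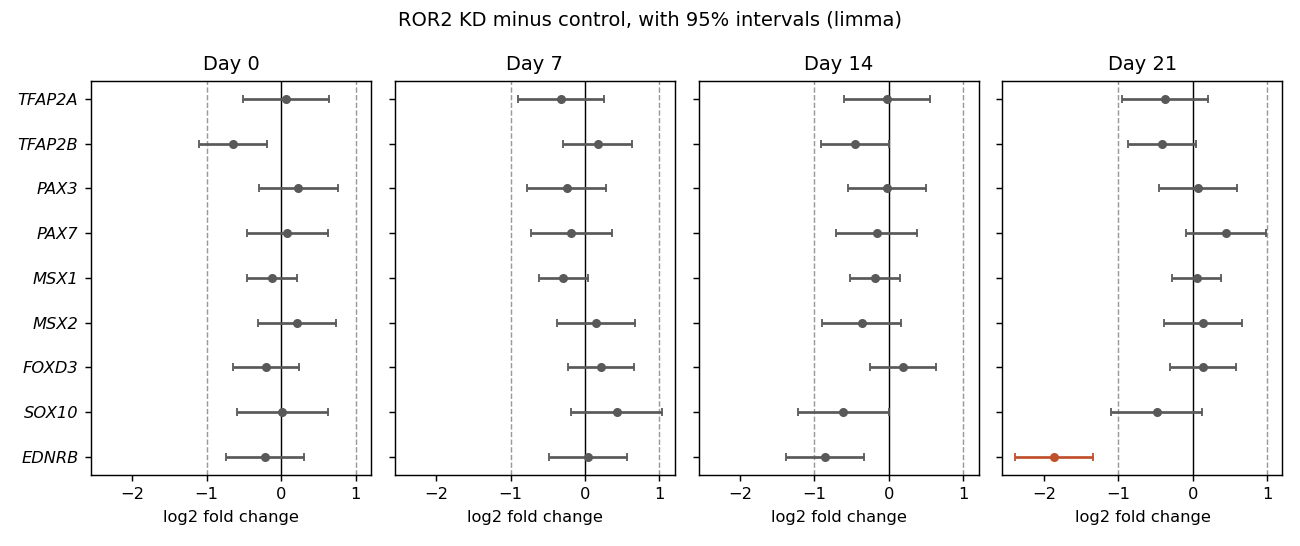
Log2 difference between ROR2 KD and control cells (x axis) for each member (y axis) on days 0, 7, 14 and 21, with 95% intervals from limma over 3 arrays per group. The orange point is the called difference, EDNRB on day 21 at -1.86, and dashed lines mark a fold change of 2 in either direction.

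*EDNRB* was the one member with a called change between days. In control cells it read 8.32, 7.65 and 7.72 on day 0, 6.72, 6.52 and 6.48 on day 7, 9.94, 10.03 and 9.94 on day 14, and 9.74, 9.36 and 8.69 on day 21. In *ROR2* KD cells it read 7.72, 7.73 and 7.58 on day 0, 6.63, 6.49 and 6.73 on day 7, 9.38, 9.11 and 8.86 on day 14, and 7.89, 7.24 and 7.08 on day 21. The signal was thus lowest on day 7 and highest on day 14 in both cell lines, and the arrays of the cell lines overlapped on days 0 and 7 and separated on days 14 and 21. In the order of group means, control day 14 (9.97 ± 0.05, SD, n = 3) stood first. Control day 21 (9.27 ± 0.53) and *ROR2* KD day 14 (9.12 ± 0.26) followed and overlapped. Control day 0 (7.89 ± 0.37), *ROR2* KD day 0 (7.68 ± 0.09) and *ROR2* KD day 21 (7.40 ± 0.43) came next, each overlapping its neighbor. *ROR2* KD day 7 (6.62 ± 0.12) and control day 7 (6.57 ± 0.13) were last and overlapped.

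On day 21 *EDNRB* was lower in *ROR2* KD cells, with a log2 difference of -1.86 (SE 0.25, 95% interval -2.38 to -1.34, adjusted p = 4.48e-05, limma). The signal was 3.64-fold lower. All 3 *ROR2* KD arrays of that day lay under their background levels, and with these levels in place of the signals *EDNRB* was at least 2.89-fold lower. The background level itself was 8.29 to 8.39 on the control arrays and 7.30 to 8.32 on the *ROR2* KD arrays of day 21. On day 14, when all 6 arrays were above background, the difference was -0.85 (SE 0.25, 95% interval -1.38 to -0.33), with every *ROR2* KD array below every control array, and it did not pass the adjusted test (adjusted p = 0.207, limma). On day 0 the difference was -0.22 (adjusted p = 0.843) and on day 7 it was 0.04 (adjusted p = 0.975, limma). The RNA came from whole cultures, in which fewer cells with a transcript and less of it per cell cannot be told apart.

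Within each cell line, *EDNRB* first fell and then rose. From day 0 to day 7 it fell by 1.32 in control cells (adjusted p = 0.000283, limma) and by 1.06 in *ROR2* KD cells (adjusted p = 0.00269), with all 12 arrays under background. The fall in *ROR2* KD cells was just past the limit of a fold change of 2, and without replicate 2 of day 7 it was not called, at -0.996. From day 7 to day 14 it rose by 3.40 in control cells (adjusted p = 2.49e-09), at least 2.73-fold against the background level of day 7, and by 2.50 in *ROR2* KD cells (adjusted p = 2.77e-07), at least 1.77-fold. From day 14 to day 21 it fell by 1.71 in *ROR2* KD cells (adjusted p = 7.24e-05), at least 2.61-fold, whereas the change of -0.70 in control cells did not pass (adjusted p = 0.122). Over all single-symbol clusters, 27.2% were called from day 0 to day 7 in control and 25.4% in *ROR2* KD cells, 6.82% and 8.70% from day 7 to day 14, and 7.12% and 8.77% from day 14 to day 21. A change called in one cell line only is not a difference between them, and the difference of the changes was tested directly. It was 0.26 from day 0 to day 7 (adjusted p = 0.872), -0.90 from day 7 to day 14 (adjusted p = 0.565) and -1.01 from day 14 to day 21 (adjusted p = 0.492, limma), and none of the 9 members was called. Such differences were called for 0.0719%, 0.829% and 1.33% of single-symbol clusters.

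The genes whose 8 group means were most like those of *EDNRB* were sought among 5162 genes that spanned more than 2 on the log2 scale and lay above background on at least 3 arrays. *LSS*, which encodes lanosterol synthase, came first with a Pearson r of 0.9947 over the 8 group means. *MVK*, which encodes mevalonate kinase, had 0.9803, and *ACAT2*, which encodes a cytosolic acetyl-CoA acetyltransferase, had 0.9698. The group means of *LSS* in control cells were 11.70, 10.44, 13.59 and 12.82 on days 0, 7, 14 and 21, and in *ROR2* KD cells 11.34, 10.31, 12.80 and 11.43. *LSS* and *ACAT2* were above background on all 24 arrays and *MVK* on 14. The 8 means share their arrays with those of *EDNRB*, and the correlations describe likeness only. None of the other 8 members met these limits.

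**Figure D3:**
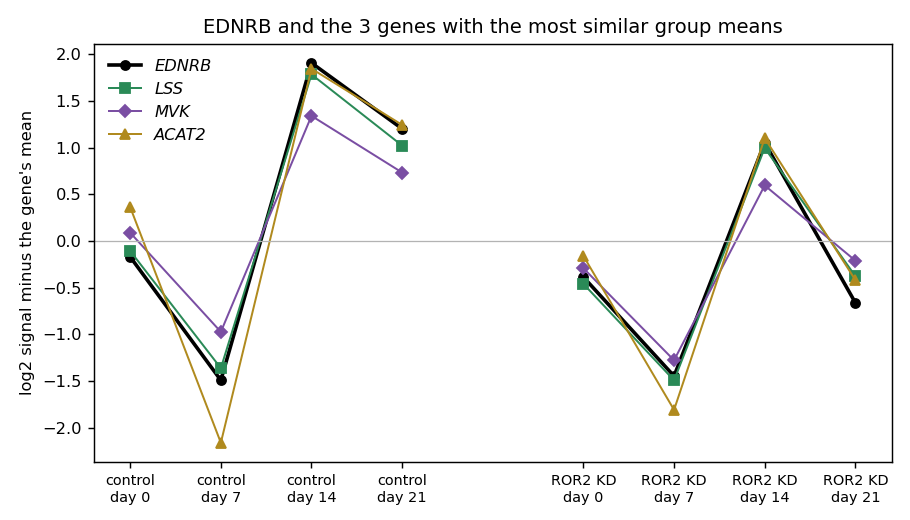
Group means of log2 signal, each minus the gene's mean over the 8 groups (y axis), for EDNRB and the 3 genes with the highest Pearson r to it, by cell line and day (x axis). All 4 genes have their lowest point on day 7 and their highest on day 14 in both cell lines, and their day 21 points lie lower for ROR2 KD than for control.

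The ligands and converting enzymes of the endothelin pathway passed no test. Of 6 listed genes 5 were measured, the ligands *EDN1*, *EDN2* and *EDN3* and the converting enzymes *ECE1* and *ECE2*, and 0 were called on any day between the cell lines. Only *ECE1*, which cleaves the ligand precursors, was above background on any array. On day 14 it read 8.43 to 8.77 in control cells, where the background level was 8.54 to 8.87. In *ROR2* KD cells it read 9.20 to 9.28, where that level was 7.76 to 8.07. The difference of 0.63 (adjusted p = 0.782, limma) thus rests in part on signals under background. *EDN3*, the ligand that acts with *EDNRB* in crest development, stayed between 4.30 and 5.63.

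In hiPSCs the transcript cluster of *FOXD3-AS1* was bright and that of *FOXD3* was dim. *FOXD3-AS1*, a noncoding transcript whose RefSeq span overlaps that of *FOXD3*, read 11.69 to 12.13 in control and 11.07 to 11.59 in *ROR2* KD cells on day 0, above background on all 6 arrays. From day 0 to day 7 it fell by 5.28 in control cells (adjusted p = 6.89e-13, limma) and by 4.76 in *ROR2* KD cells (adjusted p = 4.82e-12), at least 10.1-fold and 8.59-fold. The antisense genes *TFAP2A-AS1* and *EDNRB-AS1* were looked at too and lay under the background level on every array. The cluster of *FOXD3* itself read 3.71, 4.11 and 3.56 in control and 4.05, 3.21 and 3.50 in *ROR2* KD cells on day 0 and 3.06, 3.10 and 2.94 against 3.34, 3.27 and 3.14 on day 7. Its change of -0.76 in control cells had an adjusted p of 0.0104 but a fold change under 2. The same held from day 0 to day 7 for *TFAP2B* (-0.64, adjusted p = 0.0391) and *SOX10* (-0.83, adjusted p = 0.0453) in control cells and for *PAX3* (-0.81, adjusted p = 0.021) in *ROR2* KD cells. Over the same days the median of the negative control probe sets went from 5.21 to 4.76 in control cells. In *ROR2* KD cells it went from 4.89 to 4.65. The part of this shift in the 4 small changes, and in the fall of *EDNRB* from day 0 to day 7, was not tested.

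Genes that accompany the members at the border and in the crest were followed from lists. The counts of each list are to be read beside the share of all single-symbol clusters called. That share was 0.263% on day 7, 1.64% on day 14 and 4.51% on day 21. Of 13 measured border genes other than the members, 1 was called lower on day 7, 2 were higher and 3 lower on day 14, and 2 were higher and 2 lower on day 21. *ZIC1*, a zinc-finger factor of the border and the dorsal neural tube, read 15.95 to 16.32 in control and 7.00 to 8.45 in *ROR2* KD cells on day 14 and was 306-fold lower (adjusted p = 2.74e-10, limma), with 2 of 3 *ROR2* KD arrays above background. It was lower on day 7 as well (-3.41, adjusted p = 0.00171), with 1 of 3 *ROR2* KD arrays above background, so that both sizes rest in part on signals under it. On day 21 it was at least 118-fold lower. *DLX5*, a homeobox factor of the outer border and of the ventral forebrain, went the other way. It read 5.94 to 6.50 in control and 12.60 to 12.82 in *ROR2* KD cells on day 14, at least 16.4-fold higher (adjusted p = 3.65e-14), and on day 21, when control cells too read 12.81 to 13.08, it was 2.74-fold higher. Neither gene is restricted to the border, and among the 13 there were 7 that never lay above background.

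Of 17 measured crest specifiers other than the members, 1 was called lower on day 7, 1 higher and 2 lower on day 14, and 1 higher and 5 lower on day 21. The call of day 7 was *ID1*, a BMP-responsive inhibitor of helix-loop-helix factors (log2 difference -1.87, adjusted p = 0.00907, limma), with 2 of 3 *ROR2* KD arrays above background, and it was not called without control replicate 3 of day 7 (-1.82). *SOX9*, which specifies crest and is also expressed by neural progenitors, read 12.54 to 12.85 in control and 11.30 to 11.79 in *ROR2* KD cells on day 21 and was 2.22-fold lower (adjusted p = 0.0118, limma). Its difference on day 7 had the opposite sign (log2 difference 1.13, adjusted p = 0.0709, limma) and was not called. *KIT*, a receptor of melanocyte precursors that is also present on pluripotent cells, read 11.39 to 11.56 in control and 7.04 to 8.34 in *ROR2* KD cells on day 21 and was 15.0-fold lower (adjusted p = 7.34e-10), with 1 *ROR2* KD array above background. *NR2F1*, a nuclear receptor of crest and of the cortex, was 12.7-fold higher on day 14 (adjusted p = 2.14e-09). Of the 6 calls of day 21, 3 were made with no array of either group above background. *SNAI2*, the repressor tied to crest delamination, read 8.35 to 9.38 in control and 7.31 to 8.45 in *ROR2* KD cells on day 7 and at most 5.74 on any array of the other days, and it was not called. *TWIST1* stayed between 3.45 and 4.83.

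Of 11 measured surface and migration genes of the crest, 0 were called on day 7, 6 were higher and 1 lower on day 14, and 4 were higher and 2 lower on day 21. Over all single-symbol clusters, 0.909% were called higher and 0.727% lower on day 14. On day 21 these shares were 2.12% and 2.39%. Whether the calls of this list come from crest cells was not tested. The list median was -0.40, -0.26, 1.02 and 0.43 on days 0, 7, 14 and 21, beside -0.10, 0.01, -0.03 and -0.02 for all single-symbol clusters. *CDH7*, a type II cadherin, read 7.02 to 7.18 in control and 12.33 to 12.71 in *ROR2* KD cells on day 21, at least 19.0-fold higher (adjusted p = 6.95e-13, limma). *CDH6*, a cadherin of premigratory crest and of the forebrain, was 3.41-fold higher in *ROR2* KD cells on day 14 (adjusted p = 1.36e-05) and 4.74-fold lower on day 21 (adjusted p = 1.23e-07). *MMP2*, a matrix metalloproteinase, was 3.47-fold lower on day 14 (adjusted p = 5.65e-06) and was lower on day 21 too (log2 difference -1.14, adjusted p = 0.000802, limma). *NRP1*, a semaphorin receptor, was 2.96-fold higher on day 21 (adjusted p = 0.000476). *NGFR*, the low-affinity neurotrophin receptor used to sort crest cells, was called on both days with no array of either group above background.

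**Figure D4:**
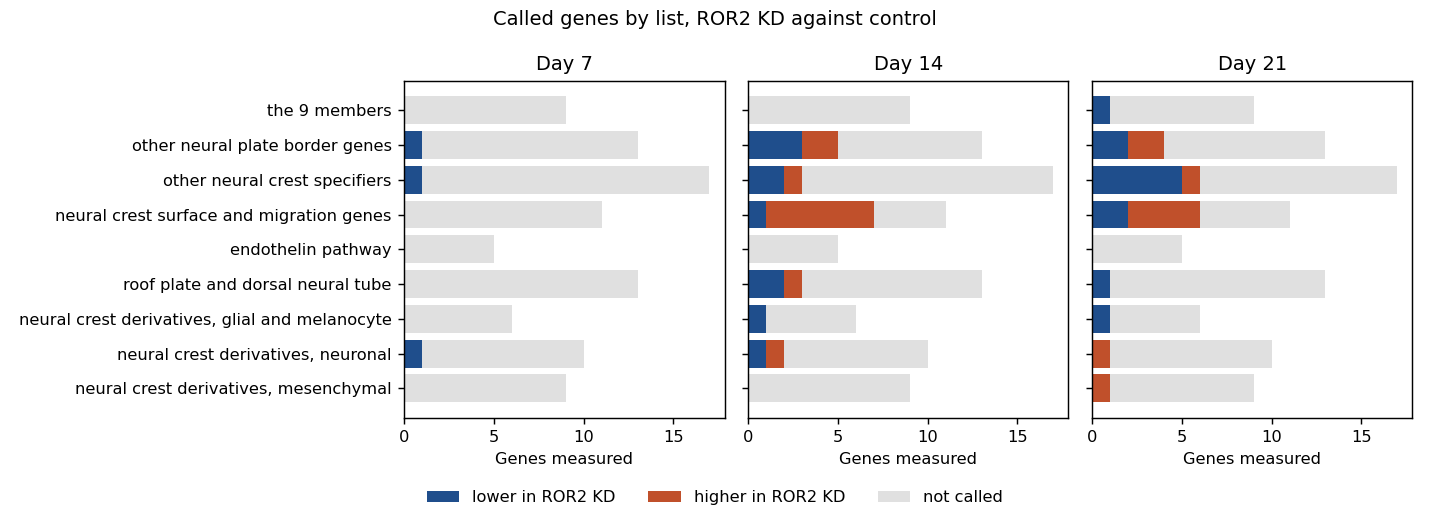
Number of genes measured in each list (x axis) that were called lower (blue), called higher (orange) or not called (grey) in ROR2 KD against control cells on days 7, 14 and 21. The list of the 9 members holds 1 call, EDNRB on day 21, and the surface and migration genes hold 7 calls on day 14 and 6 on day 21.

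The calls among differentiated crest derivatives were nearly all made at signals under background. They stand beside 0.263%, 1.64% and 4.51% of all single-symbol clusters called on days 7, 14 and 21. Of 6 measured glial and melanocyte genes 1 was lower on day 14 and 1 on day 21. Of 10 measured neuronal genes of crest ganglia 1 was lower on day 7, 1 was higher and 1 lower on day 14, and 1 was higher on day 21. Of 9 measured mesenchymal genes 1 was higher on day 21. Over the whole lists, 5 of 6 glial and melanocyte genes, 9 of 10 neuronal genes and 6 of 9 mesenchymal genes never lay above background on any array. The roof plate, which borders the crest in the dorsal neural tube, gave 1 higher and 2 lower calls of 13 measured genes on day 14 and 1 lower on day 21, and 11 of the 13 never lay above background. *RSPO1*, a secreted enhancer of WNT signaling, read above background on 2 of 3 control arrays of day 14 and was at least 1.95-fold lower in *ROR2* KD cells (adjusted p = 1.27e-05, limma). Markers of the other fates that such cultures can hold were followed too. Of 11 placode and surface ectoderm genes, *SIX4* was lower on day 14 (log2 difference -1.13, adjusted p = 0.0314, limma), with 1 of 3 *ROR2* KD arrays above background and the call lost without any single one of the 6 arrays (-1.25 to -0.93). *EYA1* was at least 4.47-fold lower on day 21 (adjusted p = 5.43e-08). Of 9 forebrain genes, *SIX6* was lower on day 7 with no array above background and the call lost without replicate 2 or 3 of *ROR2* KD cells or any control replicate (-1.17 to -0.82), *PAX6* was higher on day 14 (2.23, adjusted p = 2.51e-05), and *SIX3* (3.16, adjusted p = 4.13e-07) and *PAX6*, by at least 153-fold, were higher on day 21. Of 8 midbrain and anterior hindbrain genes *OTX2* was higher (1.62, adjusted p = 0.000595) and *FGF8* lower (-1.90, adjusted p = 0.00744) on day 7. *FGF8* was at least 1.97-fold lower on day 14 (adjusted p = 1.23e-05). On day 21 *OTX2* was lower by a log2 difference of -3.33 (adjusted p = 1.22e-10), and *WNT5A* was at least 2.25-fold lower (adjusted p = 5.86e-11). Of 5 pluripotency genes *LIN28B* was lower on day 21 (-1.25, adjusted p = 0.00158), and of 9 mesoderm and endoderm genes 0 were called and 8 never lay above background. On day 21 *PAX6* read 4.72 to 5.29 in control and 15.51 to 15.65 in *ROR2* KD cells, and the part of such a difference in neural identity in the *EDNRB* result was not tested.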

How the data were processed

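RNA of 24 cultures was profiled on Clariom D arrays. The deposited values are log2 signals that the authors made with RMA (Transcriptome Analysis Console). RMA subtracts background, equalizes the arrays and summarizes probes to 1 value per transcript cluster, and it compresses low signals. Which of the study's shRNAs was used on the arrays is not given in the sources used here, and the arrays of day 0 are known from the labels alone. Leaving out 2995 control probe sets kept 135750 of 138745, and 36176 of these carried 1 symbol. The members and lists (151 genes in 14 lists, 135 of them measured) were chosen with earlier results of these data known. Named were all members, *ROR2*, genes from the up to 4 called per list and day with the largest change, and the 3 genes most like a member. Of the genes this rule gives, *ID2*, *ID3*, *SOX8*, *NRP2*, *BMP4*, *TYRP1*, *NEUROG1*, *PRDM12* and *ISL1* are included in counts only. *NANOG*, the endothelin genes, *TFAP2C*, *SNAI2*, *TWIST1*, *FOXD3-AS1*, *TFAP2A-AS1* and *EDNRB-AS1* were added after their values were seen.

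The 8 group means were fitted jointly over all arrays (limma 3.58.1, R 4.3.3) with 16 residual and 6.36 prior degrees of freedom, two-sided p-values adjusted over all clusters, and intervals are 95%. The number of arrays limits the precision. A bound written "at least" puts, on each array of the dimmer group, the higher of the signal and the background level in place of the signal. The model was tested on simulated data. Groups came from the labels, replicate numbers were checked for pairing, and 0 pairs of identical arrays were found. Alternatives were the 6 arrays of a day alone, quantile normalization, median centring, array weights, a replicate block, robust moderation, a variance trend, the methods' t-test, a filter on dim clusters, no fold minimum, the 4 arrays with the highest medians left out, and each array left out. Another cluster of the same symbol could not be tried, since 0 members had more than 1. Promoter windows came from RefSeq (GRCh38.p14).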

Additional observations from a re-analysis of the deposited data

Results flagged for a closer look

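Among the 9 members no change between days differed between the cell lines past the threshold. It did so for genes that accompany them in the lists, by limma's test of the difference of changes (*ROR2* KD minus control, 3 arrays per group, log2 scale). From day 7 to day 14 the difference was -4.84 for *ZIC1*, -2.64 for *ZIC5*, 6.01 for *DLX5*, 3.36 for *DLX6*, 2.85 for *NR2F1*, 1.94 for *CDH6*, 3.25 for *CDH7*, -1.53 for *MMP2*, -3.43 for *RSPO1*, -1.88 for *PMEL*, 1.52 for *NEUROG2*, -1.92 for *OTX2* and 1.75 for *PAX6*. From day 14 to day 21 it was 2.74 for *ZIC5*, -5.03 for *DLX5*, -1.82 for *GBX2*, -3.12 for *NR2F1*, -2.28 for *KIT*, -4.02 for *CDH6*, 2.89 for *CDH7*, 2.25 for *NRP1*, -2.02 for *BMP7*, 2.54 for *RSPO3*, 1.98 for *PMEL*, 2.37 for *LUM*, -2.49 for *EYA1*, 2.89 for *FGF8*, -3.02 for *OTX2*, 8.34 for *PAX6*, 3.56 for *SIX3*, 1.59 for *SIX4* and -3.38 for *WNT5A*. *ZIC5*, *GBX2*, *RSPO3*, *BMP7*, *PMEL*, *LUM* and *NEUROG2* lay under background on all 6 arrays of the day of their call, and *DLX6* did so on day 14 but not on day 21.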

How the results depend on the processing

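No result changed direction while called. The difference of *EDNRB* on day 21 lay between -2.15 and -1.62 and was called in 16 of 17 alternatives with an adjusted p. The exception was the methods' t-test after Benjamini-Hochberg adjustment (-1.86, adjusted p = 0.325). The authors named that t-test for group comparisons in general. Their adjusted p-values for the arrays came from Transcriptome Analysis Console instead. Under the t-test 0 members were called on day 21 and 0 from day 14 to day 21 in *ROR2* KD cells, against 1 each. With no fold minimum, 2 members were called from day 0 to day 7 in *ROR2* KD cells and 4 in control cells, and quantile normalization called 2 in control cells, against 1 each. With single arrays left out, 0 to 2 members were called for that change in *ROR2* KD cells (0 without replicate 2 of day 7, 2 without replicate 2 of day 0) and 1 to 2 in control cells (2 without replicate 2 of day 0). For the difference between the cell lines on the 4 days, the other 8 members gave 544 values under the alternatives, of which 0 were called and 23 had a changed sign. The difference of *EDNRB* on day 14 ran from -0.98 to -0.73 (adjusted p 0.0245 to 0.77) and was not called in any of 17 alternatives.

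The number of all single-symbol clusters called moved more than the members did. On day 0 (31) it was 10 with array weights, 65 with dim clusters left out, 0 with only the 6 arrays, 52 with quantile normalization, 0 and 209 with the methods' t-test after and before adjustment, and 12 to 35 with single arrays left out. On day 7 (95) it was 317, 167 and 12 under the first 3 of these settings, 0 and 286 with the t-test, and 34 to 381 with single arrays left out. On day 14 (592) it was 10 with the adjusted t-test and 408 to 499 with single arrays left out. On day 21 (1633) it was 818 with only the 6 arrays, 133 with the adjusted t-test and 1358 to 1728 with single arrays left out. The causes were not tested. Of 853 values for 48 called genes of the lists, 761 were called in the same direction, 92 were no longer called and 0 reversed.

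Whether replicate numbers pair the arrays is not in the labels, and the check made here cannot decide it. Arrays with the same number had residual correlations of -0.02 to 0.22. For 6 of 12 arrays the best partner was the one of their own number. With the replicate number as a block, *EDNRB* on day 21 stayed at -1.86 (adjusted p = 1.02e-05, limma) and 1 of 9 members was called. The filter on dim clusters kept *EDNRB* alone of the 9. What signal over background limits is the 8 other members: at their levels a change of the transcript could go unseen.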
